A study of Homo sapiens with 8 samples.

Results

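The tight junction and desmosome genes are 39 genes taken by name: 16 claudins, the 3 MARVEL proteins OCLN, MARVELD2 and MARVELD3, 5 immunoglobulin-like membrane proteins, 3 plaque proteins, 4 desmosomal cadherins, 5 armadillo proteins and 3 plakins. They were found on the arrays through the RefSeq accession of each probe. No cutoff on a measured value was used to choose them, but earlier results of these data were known. A probe was found for 38 of them, with 51 probes in all, and 36 were among the 28850 genes tested, of which 17858 had a RefSeq symbol and 10992 were known by an accession alone. TJP3, a scaffold protein of the tight junction, was matched to no probe and was not analysed here. A probe is said to clear the background, or to be well above it, on an array where Feature Extraction marked its spot so. CLDN10 and DSG3 had a mean signal under 3 on the log2 scale, cleared the background on 0 of 8 arrays and were not tested.

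LNCaP, an androgen-responsive line grown from a lymph node metastasis of a human prostate cancer, was transfected with 30 nM of an siRNA against GATA2 (siGATA2) or of a scrambled siRNA (siControl). Both groups were grown in RPMI-1640 with 10% fetal bovine serum and were transfected with the same reagent, and RNA was collected after 72 h. The 4 biological replicates of each group were measured on 8 one-color Agilent arrays. Over all genes siGATA2 arrays 1 and 2 correlated at 0.997, siGATA2 arrays 3 and 4 at 0.995 and siControl arrays 2 and 4 at 0.995, against 0.961 to 0.980 for the other pairs within a group, so the p-values measure a spread that may be partly technical. Each group is a transient transfection of 1 cell line.

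Tight junctions seal the space between epithelial cells. Claudins form the seal and set which ions pass it, MARVEL proteins such as occludin line the strands, and plaque proteins tie the strands to actin. Desmosomes hold neighboring cells together through the cadherins desmoglein and desmocollin, which armadillo proteins and plakins link to the keratin filaments. In the prostate, luminal cells carry the tight junctions of the gland, and desmosomes join both luminal and basal cells.

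All values are quantile-normalized log2 processed signals, and log2 fold changes are above 0 where the siGATA2 mean was the higher. A gene was called when its adjusted p from limma was under 0.05. On the arrays labelled siGATA2 the GATA2 signal was 12.61, 12.54, 11.57 and 11.40 on arrays 1 to 4, and on those labelled siControl it was 11.74, 11.28, 11.10 and 11.29. The groups overlapped, and the signal of this GATA2 probe, the brightest, was not lower where GATA2 was targeted. Its log2 fold change was 0.68 (SE 0.312, adjusted p = 0.154 from limma, exact two-sided permutation p = 0.143). By Western blot the study reports much less GATA2 protein in LNCaP cells treated with siGATA2, which was not analysed here. The GATA2 rise passed the threshold when arrays were weighted (1.10) and when the arrays with title letters A and B formed a block of their own (0.47). Every direction below therefore rests on the labels of the arrays. The luminal markers KRT8, KRT18, CDH1, EPCAM, KLK3 and FOLH1 were well above background on all 8 arrays. Of the basal markers KRT5, KRT14, KRT15 and TP63, 1 of 4 was well above background on all 8 arrays, and KRT5, KRT14 and TP63 were not. The same held for 1 of 6 fibroblast markers, 2 of 3 endothelial markers, without PECAM1, and 2 of 3 leukocyte markers, without CD3E. The mean log2 signal of the basal markers was 4.62 to 4.96 on the siGATA2 arrays and 4.80 to 5.49 on the siControl arrays, that of the fibroblast markers 3.87 to 4.13 and 4.48 to 5.18, that of the endothelial markers 6.72 to 7.17 and 7.16 to 7.58, and that of the leukocyte markers 7.67 to 7.72 and 7.31 to 7.54. The cultures were of 1 cell line, so these marker signals are not read as counts of other cell types. Their source and their part in the results were not tested. In whole cultures fewer cells and less RNA per cell cannot be told apart. All arrays lay on 1 slide, and 28485 and 24241 probes were well above background on siControl arrays 1 and 3, against 33969 to 36968 on the other 6.

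Of the 36 junction genes tested, 11 were lower and 9 were higher on the siGATA2 arrays. Over all genes tested 14.2% were lower and 12.3% higher, or 26.5% in either direction, against 55.6% of the junction genes. As the junction genes were listed with earlier results of these data known, the difference between these shares was not tested. Of the genes with a RefSeq symbol, as all junction genes have, 19% were lower and 15.1% higher, or 34.1% in all. The lower genes made 53.5% of all called genes, against 93.1% of those called when the arrays were scaled to their E1A spike-ins, RNAs added in fixed amounts. Among the 18419 genes well above background on all 8 arrays 34.7% were called, against 17 of the 26 junction genes of that kind, or 65.4%. The median log2 fold change of the junction genes was -0.01, beside 0.09 for all genes, so that the called genes lay on both sides of a center near 0. By at least 2-fold, 8 junction genes were lower and 3 higher, where 7.13% and 4.52% of all genes were. The siGATA2 and siControl values did not overlap for 20 of the 36, against 32.6% of all genes. Tight junction genes split evenly, with 6 lower, 6 higher and 13 not called of 25, and desmosome genes were lower in 5, higher in 3 and not called in 3 of 11.

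**Figure D1:**
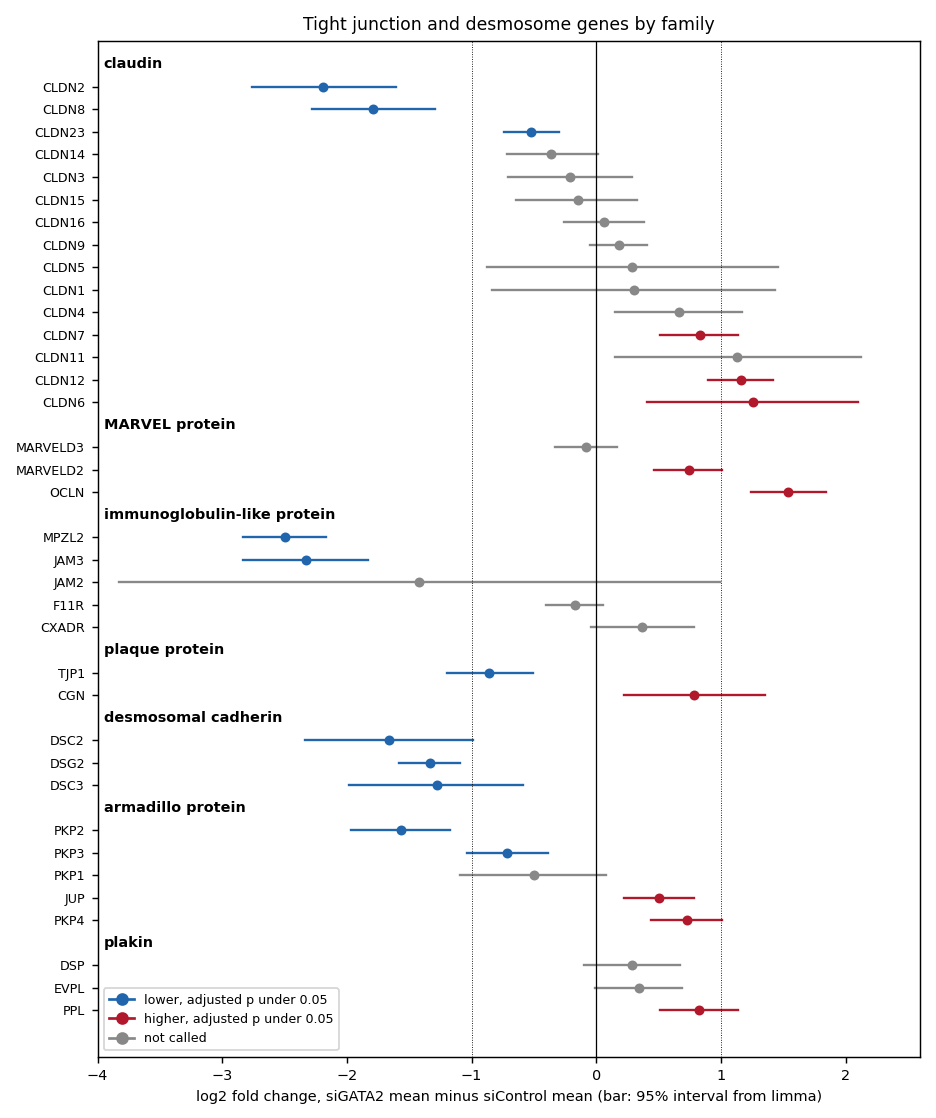
Log2 fold change of the 36 junction genes tested, siGATA2 mean minus siControl mean, by protein family, with points for the estimate and bars for its 95% interval from limma. The 3 desmosomal cadherins tested lie between -1.66 and -1.28, and within the claudins the estimates run from -2.19 for CLDN2 to 1.26 for CLDN6.

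The claudins were called in both directions. Of 15 tested, 3 were lower, 3 were higher and 9 were not called, and their median lay at 0.18 on the log2 scale. In all 40% of them were called, near the 34.1% of all genes with a RefSeq symbol. The largest fall was that of CLDN2, which forms a pore for sodium and water in leaky epithelia. Its signal was 5.36, 5.34, 5.06 and 4.65 on siGATA2 arrays 1 to 4 and 6.68, 7.62, 7.33 and 7.52 on siControl arrays 1 to 4. The highest siGATA2 value lay below the lowest siControl value, and CLDN2 fell by 2.19 on the log2 scale (SE 0.249, adjusted p = 0.000468), or 4.56-fold, while with a background correction by normexp its fall was 1.12, or 2.17-fold. CLDN8, a claudin of tight epithelia that limits cation passage, gave 6.24, 6.01, 6.44 and 6.33 against 7.50, 8.50, 7.97 and 8.18. Again the groups did not overlap, and its signal fell by 1.79 (SE 0.216, adjusted p = 0.000627), or 3.45-fold. CLDN23 was lower by less, at 9.24, 9.18, 9.12 and 9.10 against 9.80, 9.67, 9.58 and 9.66, with a log2 fold change of -0.52 (SE 0.0952, adjusted p = 0.00528). CLDN2 and CLDN8 were called lower in all 23 other ways of processing the data, and CLDN23 in 21, the exceptions being both scalings to the E1A spike-ins.

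Among the claudins that rose, CLDN12 changed with the least spread. This claudin lacks the PDZ-binding end that ties most claudins to the plaque. It gave 13.42, 13.33, 13.43 and 13.41 on the siGATA2 arrays and 12.13, 12.46, 12.09 and 12.27 on the siControl arrays, and was 2.24-fold higher (log2 fold change 1.16, SE 0.112, adjusted p = 0.000206). A second, dimmer CLDN12 probe rose by 0.77 (SE 0.231, adjusted p = 0.0407). CLDN7, a claudin of most simple epithelia, gave 15.53, 15.52, 15.20 and 15.27 against 14.28, 14.70, 14.60 and 14.62. Its groups were also apart, and it was 1.77-fold higher (log2 fold change 0.83, SE 0.137, adjusted p = 0.00313). CLDN7 lost its call with both scalings to the E1A spike-ins, and its lowest log2 fold change in any setting was 0.11. CLDN6, which is known from embryonic epithelium and germ cell tumors, was split within its group, with 5.89 and 6.15 on siGATA2 arrays 1 and 2 but 7.47 and 7.33 on arrays 3 and 4, against 5.27, 5.57, 5.52 and 5.46. It was called at the edge of the threshold, with a log2 fold change of 1.26 (SE 0.367, adjusted p = 0.0381), with a probe that cleared the background on 2 of 4 siControl arrays. The CLDN6 call was lost without siGATA2 array 3 (1.00, adjusted p = 0.0775) or 4 (1.05, adjusted p = 0.0862), and without siControl array 1 (1.19, adjusted p = 0.0766), 2 (1.29, adjusted p = 0.0763), 3 (1.28, adjusted p = 0.0712) or 4 (1.26, adjusted p = 0.0827). In all it was lost in 11 of 23 settings, with a value of 0.66 under normexp (adjusted p = 0.0583).

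CLDN3 and CLDN4, which bind the enterotoxin of Clostridium perfringens and lie next to each other on chromosome 7, were not called. CLDN3 gave 14.95, 14.93, 14.35 and 14.35 against 15.31, 14.70, 14.75 and 14.67, a log2 fold change of -0.21 (95% interval -0.71 to 0.29). CLDN4 gave 17.45, 17.45, 16.80 and 16.71 against 16.80, 16.29, 16.32 and 16.35, a log2 fold change of 0.66 (95% interval 0.15 to 1.17, adjusted p = 0.0607). For both genes siGATA2 arrays 1 and 2 were above arrays 3 and 4, and siControl array 1 was above the other siControl arrays. These 3 arrays have the title letters A and B, and with them as a block of their own CLDN3 was called lower (-0.36, adjusted p = 0.00178), with a difference of -0.37 within A and B and of -0.36 among the rest. CLDN4 was called higher in 6 of 23 settings, among them without siControl array 1 (0.78, adjusted p = 0.0369) and without siGATA2 array 4 (0.79, adjusted p = 0.0410). CLDN11, the claudin of myelin and of the Sertoli cell barrier, had a log2 fold change of 1.13 with an interval of 0.15 to 2.12 (adjusted p = 0.0909) and cleared the background on 2 of 4 siControl arrays, and CLDN11 was called higher without siControl array 1 (1.42, adjusted p = 0.0388). The remaining claudins, CLDN1, CLDN5, CLDN9, CLDN14, CLDN15 and CLDN16, had log2 fold changes of -0.36 to 0.30 and overlapping groups, and CLDN14 was called lower with the title letter block (-0.41, adjusted p = 0.0458). The intervals of CLDN1 (-0.84 to 1.43) and CLDN5 (-0.88 to 1.46) were wide enough to hold a 2-fold change, whereas that of CLDN9 ran from -0.05 to 0.41. CLDN6 and CLDN9 are neighbors on chromosome 16, as are CLDN1 and CLDN16 on chromosome 3, and of these 4 genes only CLDN6 was called, apart from CLDN9 with array weights.

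Of the 3 MARVEL proteins 2 rose. OCLN, which encodes occludin, gave 11.31, 11.35, 10.92 and 11.12 on the siGATA2 arrays and 9.81, 9.61, 9.56 and 9.56 on the siControl arrays. The groups lay more than a log2 unit apart, and OCLN was 2.91-fold higher (log2 fold change 1.54, SE 0.130, adjusted p = 0.000111). Its second probe rose by 1.36 (SE 0.169, adjusted p = 0.000713). OCLN has a near-identical pseudogene copy, OCLNP1, and how far it shares the signal of these probes is uncertain. MARVELD2, or tricellulin, which seals the corners where 3 cells meet, gave 11.63, 11.65, 11.67 and 11.64 against 11.19, 10.81, 10.76 and 10.87. The 4 siGATA2 values of MARVELD2 were nearly equal and all above the siControl values, and it was 1.67-fold higher (log2 fold change 0.74, SE 0.119, adjusted p = 0.00264). MARVELD3 stayed near 0, at -0.08 (95% interval -0.33 to 0.17). OCLN and MARVELD2 kept their call in 22 of 23 settings and lost it when the arrays were scaled to the E1A spike-ins, at 0.94 (adjusted p = 0.337) and 0.12 (adjusted p = 0.935).

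OCLN and MARVELD2 lie next to each other on chromosome 5, with no coding gene between them, and both rose, so the 250 bases before each start are shown, from RefSeq on GRCh38.p14, plus strand, chr5:69414866-69415115 for MARVELD2 and chr5:69492297-69492546 for OCLN. Capitals mark 2 kinds of short word, searched on both strands: CACCTG, the E-box that SNAI1 and ZEB1 are known to bind, and the GATA words, namely TGATAA as well as AGATAA with an A at the end, and TGATAG as well as AGATAG with a G there.
MARVELD2: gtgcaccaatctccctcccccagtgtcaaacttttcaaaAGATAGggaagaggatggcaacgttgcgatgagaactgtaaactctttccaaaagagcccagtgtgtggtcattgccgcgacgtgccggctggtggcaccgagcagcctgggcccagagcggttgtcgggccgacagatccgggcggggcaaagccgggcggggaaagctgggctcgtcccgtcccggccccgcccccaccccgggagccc
OCLN: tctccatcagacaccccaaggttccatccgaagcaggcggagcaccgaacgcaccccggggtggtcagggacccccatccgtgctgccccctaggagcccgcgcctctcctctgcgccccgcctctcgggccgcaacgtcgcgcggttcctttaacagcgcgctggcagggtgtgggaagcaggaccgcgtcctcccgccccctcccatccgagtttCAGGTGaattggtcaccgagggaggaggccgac
The MARVELD2 window held 1 GATA word and the OCLN window 1 E-box, written here as the reverse complement CAGGTG. Their GC contents were 64.4% and 68.8%, where the median of all promoter windows was 58.0%. Windows of 300 bases around the start were given for 25 of the 39 junction genes, 40 windows in all. Of these, 14 held the E-box, or 35.0%, against 20.6% of 35116 windows of all genes, and 9 held a GATA word, or 22.5%, against 25.0% of all. Counted by gene, as some had several windows, the E-box was held by 3 of 5 lower, 4 of 8 higher and 4 of 9 not called. A GATA word was held by 2 of 5, 3 of 8 and 3 of 9. No E-box overlapped a GATA word in these 40 windows. The matches describe letters in these windows and were not tied to the changes in signal.

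The immunoglobulin-like membrane proteins held the largest fall of all junction genes. MPZL2, an adhesion protein found at epithelial contacts, gave 10.00, 9.93, 9.52 and 9.57 on the siGATA2 arrays and 12.41, 12.25, 12.24 and 12.12 on the siControl arrays. It fell by 2.50 on the log2 scale (SE 0.143, adjusted p = 2.41e-05), or 5.65-fold, with no overlap. Its second probe, designed on another transcript, fell by 1.14 (SE 0.135, adjusted p = 0.000571), so that both were lower and by unequal amounts, and the mean over both fell by 1.82. JAM3, a junctional adhesion molecule, gave 3.75, 3.36, 3.03 and 3.50 against 5.24, 6.01, 5.75 and 5.95 and fell by 2.33 (SE 0.218, adjusted p = 0.000177), or 5.03-fold. The JAM3 probe was dim, well above background on 2 of 4 arrays in each group, and with normexp its fall was 0.72 on the log2 scale. MPZL2 was called lower in all 23 settings and JAM3 in all 22 in which it was tested. F11R, or JAM-A, did not pass, at 14.72, 14.78, 14.65 and 14.62 against 14.98, 14.89, 14.81 and 14.79. The F11R groups did not overlap, yet the difference was small, with an interval of -0.40 to 0.05, and its second probe had the opposite sign, at 0.07. With the title letter block F11R was called lower (-0.21, adjusted p = 0.0243). CXADR, the coxsackievirus and adenovirus receptor, had a log2 fold change of 0.37 (95% interval -0.04 to 0.78) and overlapping groups, and was called higher with the title letter block (0.48, adjusted p = 0.00285). CXADR also has near-identical pseudogene copies, which makes its signal uncertain. JAM2 had a log2 fold change of -1.42 that rested on 1 array, siControl array 3 at 9.84 where the other siControl arrays gave 4.91 to 5.24. Without that array the log2 fold change of JAM2 was -0.24 (adjusted p = 0.423).

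The plaque proteins that were tested went opposite ways. TJP1, or ZO-1, the scaffold that joins claudins and occludin to actin, gave 13.05, 12.83, 12.57 and 12.59 on the siGATA2 arrays and 13.87, 13.57, 13.53 and 13.51 on the siControl arrays. The groups were apart, and TJP1 was 1.81-fold lower (log2 fold change -0.86, SE 0.148, adjusted p = 0.00388). CGN, or cingulin, which binds ZO-1 and actomyosin, gave 14.39, 14.38, 13.66 and 13.64 against 13.68, 13.17, 12.98 and 13.10. It was called higher with overlapping groups, at a log2 fold change of 0.78 (SE 0.244, adjusted p = 0.0482). The call was lost in 11 of 23 settings, with values of 0.66 without siGATA2 array 1 (adjusted p = 0.115) or 2 (adjusted p = 0.120) and of 0.76, 0.70 and 0.74 without siControl array 2, 3 or 4 (adjusted p = 0.108, 0.112 and 0.114). With E1A scaling CGN was at 0.09 (adjusted p = 0.954), while TJP1 was at -1.55 (adjusted p = 0.0704).

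The 3 desmosomal cadherins tested among the junction genes were all lower. DSG2, the desmoglein of simple epithelia, gave 9.23, 9.29, 9.28 and 9.15 on the siGATA2 arrays and 10.72, 10.52, 10.40 and 10.65 on the siControl arrays. Its arrays hardly differed within a group, and DSG2 fell by 1.33 on the log2 scale (SE 0.107, adjusted p = 9.04e-05), or 2.52-fold. DSC2, the desmocollin that pairs with it in such epithelia, gave 6.79, 6.96, 7.38 and 7.17 against 9.39, 8.21, 9.09 and 8.27. The siControl values of DSC2 were more scattered but all above the siGATA2 values, and it fell by 1.66 (SE 0.292, adjusted p = 0.00410), or 3.17-fold. DSC3, a desmocollin of basal and stratified epithelia, gave 2.81, 2.28, 3.20 and 3.46 against 4.03, 4.72, 4.36 and 3.77. Its log2 fold change was -1.28 (SE 0.300, adjusted p = 0.0155), but the DSC3 probe cleared the background on 0 of 4 siGATA2 and 2 of 4 siControl arrays. With each siGATA2 value raised to at least the lowest signal well above background on its array, the siGATA2 mean was 2.98. The siControl mean of 4.22 was 2.36-fold above that. On the siControl arrays signals well above background began at a mean of 4.10, near the DSC3 mean, so 2.36-fold is no lower bound. The size of the DSC3 fall also depended on the scale, as with normexp its log2 fold change was -0.18 and not called (adjusted p = 0.121). Leaving out 1 array at a time gave -1.46 to -1.06 for DSC3, each one called, and in all its call was lost in 4 of 22 settings. DSG2 and DSC2 were called lower in all 23 settings. DSG3, the desmoglein of basal keratinocytes, was not tested, as its probe cleared the background on no array.

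These 4 cadherin genes sit in 1 cluster on chromosome 18, with DSC3 next to DSC2 and DSG3 next to DSG2. Between DSC2 and DSG3 lie 3 other coding genes. Of the 4 cadherin genes listed among the junction genes, the 3 that were tested were lower. The 250 bases before each of their starts are shown. The bases are from RefSeq on GRCh38.p14. Of the other desmosomal cadherins, DSC1 was lower and DSG1 was not called, and both are described below with the cell envelope genes. DSC3 is on the minus strand at chr18:31042743-31042992, DSC2 on the minus strand at chr18:31102422-31102671, and DSG2 on the plus strand at chr18:31497927-31498176. Capitals mark the same E-box and GATA words as above.
DSC3: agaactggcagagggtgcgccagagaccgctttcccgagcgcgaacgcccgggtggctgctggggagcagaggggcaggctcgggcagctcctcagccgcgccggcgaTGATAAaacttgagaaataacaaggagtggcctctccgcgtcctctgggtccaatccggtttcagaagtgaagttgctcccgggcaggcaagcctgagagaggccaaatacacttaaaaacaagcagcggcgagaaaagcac
DSC2: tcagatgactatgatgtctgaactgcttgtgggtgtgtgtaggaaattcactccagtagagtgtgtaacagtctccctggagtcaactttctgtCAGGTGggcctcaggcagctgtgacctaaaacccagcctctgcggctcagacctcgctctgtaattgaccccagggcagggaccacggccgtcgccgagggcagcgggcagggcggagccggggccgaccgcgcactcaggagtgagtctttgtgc
DSG2: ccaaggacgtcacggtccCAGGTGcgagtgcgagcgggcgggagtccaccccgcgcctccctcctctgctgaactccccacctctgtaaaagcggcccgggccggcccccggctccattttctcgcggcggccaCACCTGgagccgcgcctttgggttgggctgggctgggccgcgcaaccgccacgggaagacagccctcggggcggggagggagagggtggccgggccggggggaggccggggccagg
DSG2 held 2 E-boxes and a GC content of 75.2%, DSC2 held 1 E-box at 59.6%, and DSC3 held 1 GATA word at 60.4%. No word was common to the windows of all 3 genes.

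**Figure D2:**
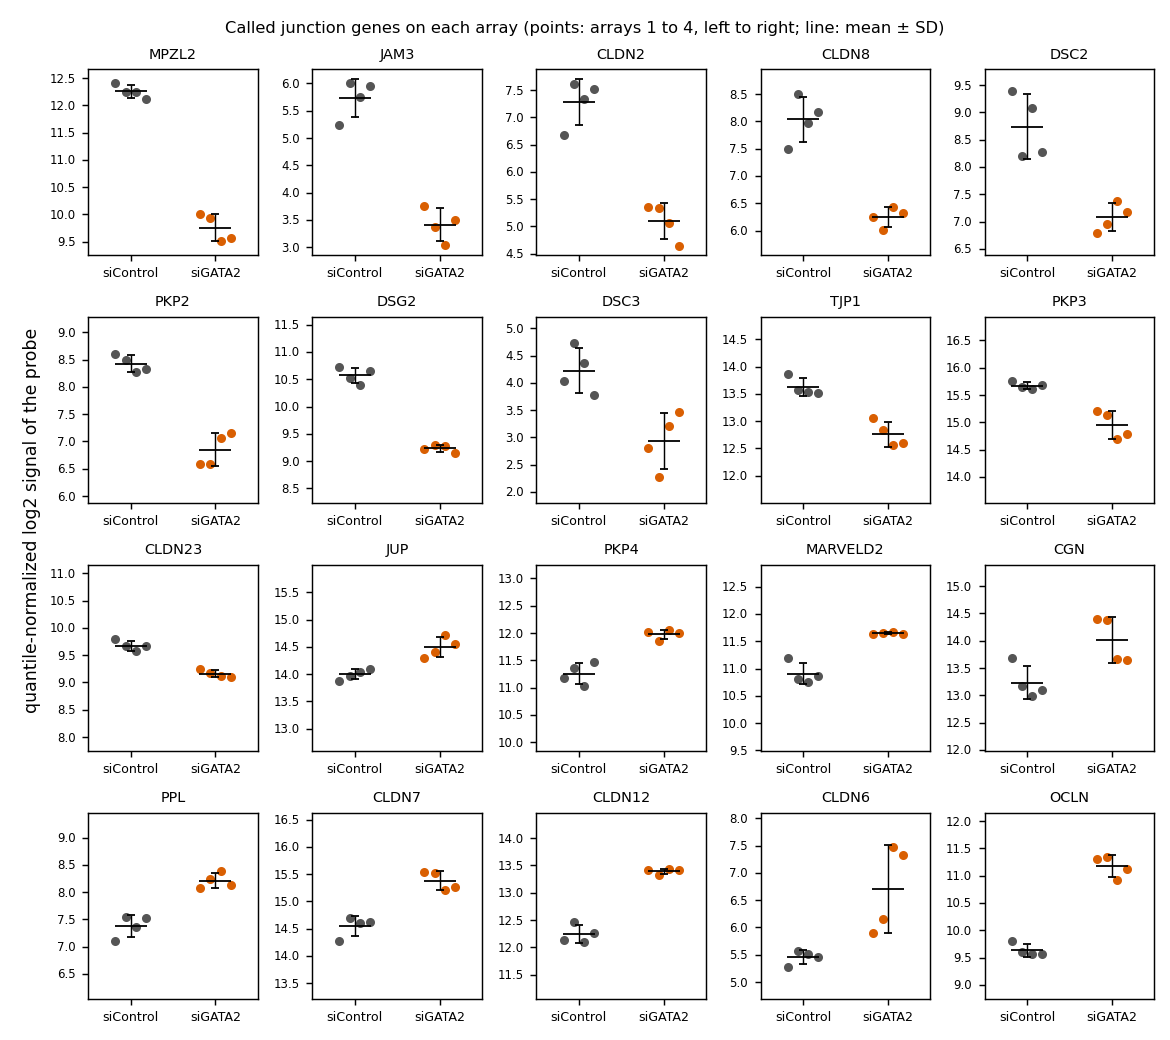
Quantile-normalized log2 signal of the 20 called junction genes on each array, from the largest fall (MPZL2) to the largest rise (OCLN), with points for arrays 1 to 4 of each group and a line for the mean ± SD of 4 arrays. Each panel has its own scale, which starts above or below 0, and the siGATA2 and siControl values overlap in CGN alone.

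The armadillo proteins, which link the cadherins to the plakins, divided. PKP2, the plakophilin of simple epithelia and heart, gave 6.59, 6.58, 7.07 and 7.16 on the siGATA2 arrays and 8.61, 8.49, 8.27 and 8.33 on the siControl arrays. It fell by 1.57 on the log2 scale (SE 0.172, adjusted p = 0.000387), or 2.97-fold, and was called in all 23 settings. PKP3, found in nearly all epithelial desmosomes, gave 15.21, 15.13, 14.70 and 14.78 against 15.75, 15.64, 15.61 and 15.69. It was 1.64-fold lower (log2 fold change -0.72, SE 0.140, adjusted p = 0.00690), again with no overlap, and lost its call with E1A scaling (-1.46, adjusted p = 0.0842). In the other direction, PKP4, a relative of the plakophilins that also lies at adherens junctions, gave 12.01, 11.86, 12.05 and 12.00 against 11.18, 11.35, 11.02 and 11.46. Its 3 probes rose by 0.73, 0.69 and 0.68 (adjusted p = 0.00380, 0.00164 and 0.00173). PKP4 lost its call with both scalings to the E1A spike-ins, and its lowest log2 fold change in any setting was 0.1. JUP, or plakoglobin, shared by desmosomes and adherens junctions, gave 14.30, 14.40, 14.71 and 14.56 against 13.88, 13.97, 14.04 and 14.09 and was 1.41-fold higher (log2 fold change 0.50, SE 0.121, adjusted p = 0.0182), whereas with E1A scaling JUP was not called and had the opposite sign, at -0.19 (adjusted p = 0.886). The JUP call was also lost with 75th percentile scaling (0.41, adjusted p = 0.136), slide row as a block (0.49, adjusted p = 0.0732), siControl arrays 2 and 4 only (0.47, adjusted p = 0.0827), E1A scaling without siControl array 1 (0.13, adjusted p = 0.678) and without siControl array 2 (0.49, adjusted p = 0.0546), so that it held in 17 of 23 settings. PKP1, the plakophilin of stratified epithelia, was dim, and its log2 fold change of -0.50 missed the threshold (95% interval -1.09 to 0.08), and its second probe was at -0.06. PKP1 was called lower without siControl array 1 (-0.71, adjusted p = 0.0440) and with array weights (-0.63, adjusted p = 0.00970), whereas with 75th percentile scaling it had the opposite sign, at 0.19 (adjusted p = 0.584).

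Of the plakins, the proteins that reach the keratin filaments, 1 of 3 rose. These 33.3% are near the 34.1% called among all genes with a RefSeq symbol. PPL, or periplakin, gave 8.08, 8.24, 8.39 and 8.13 on the siGATA2 arrays and 7.10, 7.55, 7.36 and 7.52 on the siControl arrays. It was 1.77-fold higher (log2 fold change 0.82, SE 0.137, adjusted p = 0.00314), with no overlap. DSP, or desmoplakin, which every desmosome needs, gave 14.63, 14.69, 14.52 and 14.62 against 14.81, 14.19, 14.15 and 14.15. Its siControl array 1 stood above all other arrays, and the log2 fold change of 0.29 was not called (95% interval -0.10 to 0.67). Without siControl array 1 DSP was called higher, at 0.45 (adjusted p = 0.00946). EVPL, or envoplakin, the partner of periplakin in the cell envelope, had a log2 fold change of 0.34 (95% interval -0.01 to 0.69), and was called higher with array weights (0.53, adjusted p = 0.00335) and with the title letter block (0.26, adjusted p = 0.0474). Desmoplakin, the bridge of the desmosome, was thus not called lower on arrays on which DSG2, DSC2 and PKP2 were.

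Of the 38 genes with a probe, 12 had more than 1, and in 11 of these more than 1 probe was tested. All probes of MPZL2, CLDN12, PKP4 and OCLN were called in the direction of the brightest, and none of the other 7 genes had a called probe. The second DSC3 probe was under the filter, and gave 1.78 to 1.85 on the siGATA2 arrays and 3.05 to 4.24 on the siControl arrays.

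**Figure D3:**
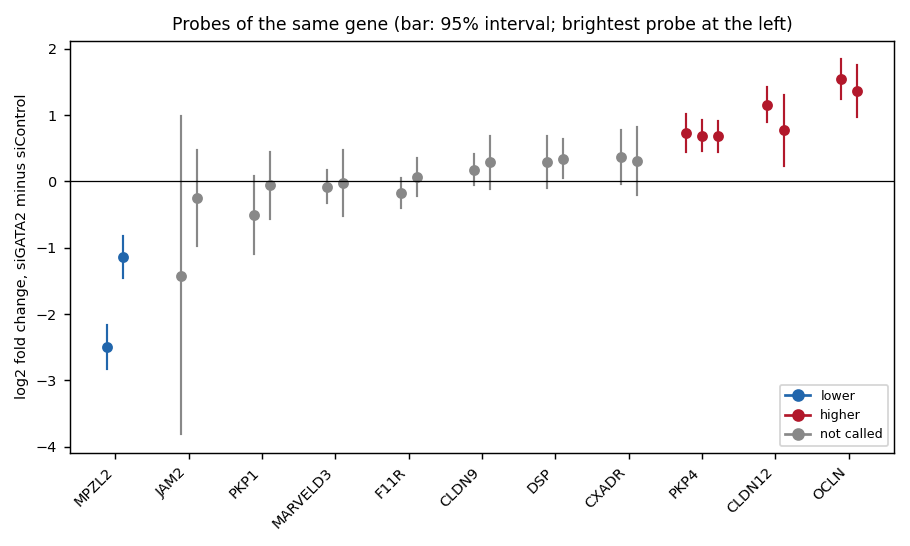
Log2 fold change of each tested probe, siGATA2 mean minus siControl mean, for the 11 junction genes with more than 1, brightest probe at the left of each gene, with bars for the 95% interval from limma. The MPZL2 probes lie at -2.50 and -1.14, the OCLN probes at 1.54 and 1.36, and the wide bar of JAM2 reflects siControl array 3.

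The other genes of the cell contacts gave a background for these changes. Among 12 other tight junction membrane proteins tested, 3 were lower and 2 higher, and the median was 0.13. These are 41.7% of the 12, to be read, as the shares of the lists that follow, against 14.2% lower, 12.3% higher and 26.5% in all over the genes tested, and against 34.1% of those with a RefSeq symbol. IGSF5, or JAM-4, fell by 2.92 (SE 0.197, adjusted p = 4.33e-05), MARVELD1 fell by 1.91 (SE 0.178, adjusted p = 0.000174), and LSR, or angulin-1, which recruits tricellulin to the corners, fell by 0.48 (SE 0.101, adjusted p = 0.0101). CLMP, a relative of CXADR, was higher by 1.93 (SE 0.403, adjusted p = 0.00948) and CLDND1 by 0.50 (SE 0.0954, adjusted p = 0.00632), although with E1A scaling CLDND1 had the opposite sign, at -0.15. Among 25 plaque, scaffold and polarity proteins more were higher than lower, 10 against 4, or 56.0% called, with a median of 0.49. The largest rises there were those of the angiomotin relative AMOTL2 (2.24, SE 0.157, adjusted p = 4.92e-05), the polarity protein PARD6B (1.02, SE 0.231, adjusted p = 0.0133) and the scaffold MPDZ (1.01, SE 0.176, adjusted p = 0.00395). The largest falls were those of YBX3, the ZO-1 partner ZONAB (-2.16, SE 0.182, adjusted p = 0.000112), PARD6G (-1.09, SE 0.199, adjusted p = 0.00508) and the kinase PRKCI (-0.73, SE 0.138, adjusted p = 0.00585). With E1A scaling 0 of these 25 were higher in limma, 1 at an unadjusted p under 0.05, and 1 was lower.

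Of 7 other genes of the desmosome and cell envelope, 1 was lower and 1 higher, or 28.6%, near the share of all genes. The spectrin SPTAN1 rose by 1.73 (SE 0.113, adjusted p = 3.88e-05). The lower gene, DSC1, named here after its values were seen, was well above background on 1 siGATA2 and 2 siControl arrays, at 2.75, 2.19, 2.30 and 2.48 against 4.97, 6.76, 6.37 and 6.64. The desmoglein DSG1, also named after its values were seen, was not called, at 0.05 with overlapping groups (SE 0.264, adjusted p = 0.901). Its probe cleared the background on 4 siGATA2 and 2 siControl arrays. Among 14 adherens junction genes 6 were higher and 1 lower, or 7 of 14 called, with a median of 0.46. VCL, or vinculin, which anchors actin, rose by 1.19 (SE 0.136, adjusted p = 0.000483), NECTIN2 by 0.98 (SE 0.214, adjusted p = 0.0113) and AFDN, or afadin, by 0.96 (SE 0.161, adjusted p = 0.00321), and the placental cadherin CDH3 fell by 0.65 (SE 0.187, adjusted p = 0.0348). The CDH3 call was lost in 12 of 23 settings, among them 75th percentile scaling (adjusted p = 0.0567), the methods' t-test, slide row as a block and each single array left out except siGATA2 array 1 and siControl array 3. With E1A scaling 0 adherens junction genes were higher in limma, also at an unadjusted p under 0.05, and 1 was lower. Of 10 gap junction genes 2 were lower and 0 higher in limma, the latter also at an unadjusted p under 0.05 and by the methods' t-test, with a median of -0.12, and these 2 of 10 are a smaller share than that of all genes. The connexins GJC1 and GJB6 had log2 fold changes of -1.42 (SE 0.132, adjusted p = 0.000173) and -0.80 (SE 0.226, adjusted p = 0.0333), and GJC1 was called in all 23 settings while GJB6 lost its call in 13. The other settings gave 1 to 3 lower gap junction genes, with 1 when siGATA2 array 1, siGATA2 array 3 or siControl array 2 was left out, and 0 to 2 higher ones, with 1 when siControl array 1 was left out.

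Among 22 regulators known to act on junction genes, 7 were lower and 4 higher, or 11 of 22 called, and the median was -0.15. SNAI1, a repressor of claudin, occludin and cadherin genes, gave 9.24, 9.02, 8.61 and 8.49 on the siGATA2 arrays and 10.60, 10.43, 10.32 and 10.40 on the siControl arrays and fell by 1.60 (SE 0.182, adjusted p = 0.000467). ZEB1, another such repressor, went the other way, at 6.11, 6.31, 6.22 and 6.20 against 5.48, 4.16, 1.84 and 4.39, and rose by 2.24 (SE 0.675, adjusted p = 0.0426). Its siControl array 3 was the lowest, and the ZEB1 probe cleared the background on 3 of 4 siControl arrays. Without siControl array 3 the ZEB1 log2 fold change was 1.54 (2.90-fold in place of 4.74-fold, adjusted p = 0.0116). The ZEB1 call was lost in 11 of 23 settings, among them the replicate block (adjusted p = 0.0527), slide row as a block (adjusted p = 0.143), the methods' t-test (adjusted p = 0.0857) and each single array left out except siControl arrays 1 and 3. SNAI1 was called lower in all 23. The epithelial ETS factor ELF3 rose by 2.39 (SE 0.141, adjusted p = 2.63e-05), while its relative EHF fell by 1.75 (SE 0.357, adjusted p = 0.00855) and TCF3, the E-box factor E2A, fell by 1.70 (SE 0.207, adjusted p = 0.000656). HNF4A was called higher, but its probe cleared the background on 0 of 4 siControl arrays, where probes that did so began at a mean of 4.10. As its siGATA2 mean was 3.56, no fold is given, and the HNF4A call was lost in 16 of 23 settings, with the opposite sign under E1A scaling.

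The arrays lay in 2 slide rows, 1 with 3 siGATA2 arrays and 1 siControl array and the other with the reverse. The letters in the sample titles, A, B, E and F in siGATA2 and B, D, F and G in siControl, split the arrays too, and A and B held 1 siControl array. Array weights were largest on siGATA2 arrays 1 and 2 (1.57 and 2.07, letters A and B) and siControl arrays 2 and 4 (3.7 and 4.22, letters D and G). With array weights the siRNA and the title letters can therefore hardly be told apart. Within row 1 and row 2 the log2 fold change was -2.31 and -2.72 for MPZL2, 1.63 and 1.46 for OCLN and 1.05 and 0.36 for CGN, and within A and B and within D to G the log2 fold change of CLDN2 was -1.33 and -2.64, where genes whose groups do not overlap cannot change sign. With slide row as a block 10 junction genes were lower and 6 higher, and with the letters A and B as a block of their own 14 were lower and 13 higher. With siControl arrays 2 and 4 only, which leaves out the arrays with fewer probes above background, 10 were lower and 7 higher. Scaling to the E1A spike-ins moved the median of all genes from 0.09 to -0.43, and 8 junction genes were then lower and 0 higher in limma, the latter also at an unadjusted p under 0.05. On siControl array 1 these spike-ins had a mean of 11.13, against 13.45 to 13.83 on the other arrays. Without that array E1A scaling gave a median of all genes of 0.00, with 10 junction genes lower and 5 higher.

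**Figure D4:**
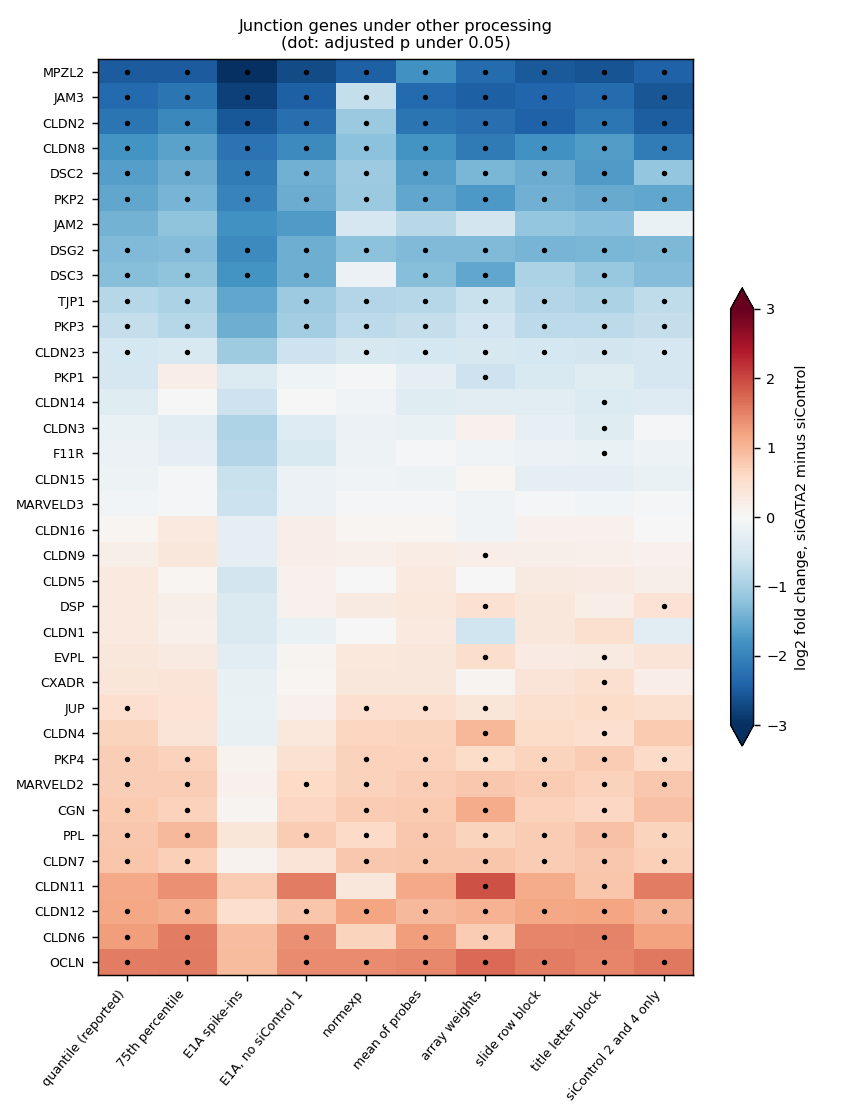
Log2 fold change of the 36 junction genes (rows, from MPZL2 to OCLN) under quantile normalization and 9 other ways of processing (columns), in blue where lower and red where higher on the siGATA2 arrays, with a dot where the adjusted p was under 0.05. The genes from MPZL2 to DSG2 other than JAM2 carry a dot in every column, and with E1A scaling no gene on the red side carries one.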

How the data were processed

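RNA of 8 LNCaP cultures, 4 siGATA2 and 4 siControl as labelled, was measured on one-color Agilent arrays. The authors deposited the scanner output of Agilent Feature Extraction 11.0.1.1, in which each spot has a processed signal, a background-subtracted intensity on a linear scale, together with a median intensity and quality flags, and a matrix of log2 values, per the file headers and the methods quantile-normalized in GeneSpring. The log2 values deposited for an array correlated with its own processed signal at 0.985 or more, and served as an alternative. The array design in the headers differs from the one in the methods.

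For each probe the mean log2 processed signal of its unflagged spots was taken and quantile-normalized with limma 3.58.1 (R 4.3.3). Gene names came from RefSeq on GRCh38.p14, where 26364 of 27902 probes with an accession were found. The 1914 probes without annotation and probes with a mean under 3 were left out, and each gene was read from its brightest probe. Probes without a RefSeq symbol went by the accession in the file, so that the 28850 genes tested are 17858 with a symbol and 10992 with an accession only. They were tested with lmFit and eBayes with Benjamini-Hochberg adjustment. The methods name a t-test, which was an alternative. In simulated data of this comparison with 28730 genes, 200 of them changed, 38% of changes of log2 size 1 and 68% of size 2 were recovered, and 8.62% of calls were false. The simulation changed a far smaller share of genes than the 26.5% called here and drew every array independently. These shares therefore do not give the recovery or the false calls of the real comparison.

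The junction genes, the 6 pathway lists, the marker lists and the tests were chosen with earlier results of these data known, and 3 genes of these lists are not reported here or counted in them. Named are the 39 junction genes, GATA2, and in each pathway list up to 3 falls and 3 rises, the largest among called genes well above background on every array of a group. DSC1 and DSG1 were named besides, after their values were seen. CDH1 and EPCAM are both adherens junction genes and luminal markers, and TP63 is both a regulator and a basal marker. Other settings were the 75th percentile or 7 E1A spike-ins as the scale, normexp with an offset of 50 on the median signal, the deposited values, other filters and probe rules, the methods' t-test, an intensity trend, array weights, blocks and left-out arrays. The E1A scaling without siControl array 1 and the block of title letters were added after the data were seen. Arrays have no read depth, and their number limits the precision. The protein, imaging and tumor data of the study were not analysed here.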

Additional observations from a re-analysis of the deposited data

Results flagged for a closer look

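In 4 of 74 groups of 4 arrays, over the 36 junction genes and GATA2, 1 array lay far from the other arrays of its group, its gap taking a larger share of the range than Dixon's 95% critical value. Chance gives about 3.7 such groups. In CLDN3 siControl array 1 was at 15.31, where the others gave 14.67 to 14.75, and its gap was 0.866 of the range. In CLDN4 the same array was at 16.80, against 16.29 to 16.35, a gap of 0.880. In DSP it was at 14.81, against 14.15 to 14.19, a gap of 0.947. The array with 3 of these 4 values is also the one with the low E1A spike-in signal, and the part of that in the values was not tested. In JAM2 siControl array 3 was at 9.84, against 4.91 to 5.24, a gap of 0.933, and the second JAM2 probe was at 5.44 on that array, against 4.09 to 4.13 on the others.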

How the results depend on the processing

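The junction genes were tested again in 23 other ways. CLDN2, CLDN8, MPZL2, JAM3, DSC2, DSG2 and PKP2 stayed called lower in each one that tested them. The count of higher genes moved most, from 9 to 0 with E1A scaling, 5 with E1A scaling without siControl array 1, 14 with array weights and 3 at 2-fold or more. Under E1A scaling JUP reversed, to -0.19. GATA2 passed as higher with array weights, at 1.10, and with the title letter block, at 0.47. Over all genes 4086 were lower and 3558 higher, against 1899 and 141 with E1A scaling, 7537 and 8042 with array weights, and 2056 and 1304 at 2-fold or more. All genes higher numbered 2184 with slide row as a block, 7198 with the title letter block and 1788 with E1A scaling without siControl array 1. The causes were not tested. Of the called genes 53.5% were lower, against 93.1% with E1A scaling and 70.8% without siControl array 1 in it. Leaving out 1 array at a time gave 11 to 12 junction genes lower and 6 to 11 higher, the 6 without siControl array 2, and 3239 to 4465 lower and 2591 to 4001 higher over all genes. With the replicate block 10 junction genes were lower and 11 higher, and over all genes 3708 and 3376. Arrays sharing a number had deviations that correlated at 0.54, -0.31, 0.17 and 0.22. These values do not settle whether the numbers pair the arrays. Signal over background limits the dim probes, JAM3, DSC3, CLDN1, CLDN5, CLDN6, CLDN11 and PKP1 among them. No block by slide could be fitted with 1 slide.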
